A study of Mus musculus with 4 samples.

Results

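The miR-30 family was described in small RNA libraries of whole testis from 16-day-old mice. Hsf5 knockdown testes and wild-type testes gave 2 libraries each, which the labels call biological replicates. The labels name neither the strain nor the way the knockdown was made, and give no allele or treatment shared by both groups. HSF5 is a heat shock factor of male germ cells, and the messenger RNA of its gene is not measured in libraries of small RNAs, so the labels could not be checked against it. The 8 members were found by name among the reads annotated as miRNAs: mmu-miR-30a-5p, mmu-miR-30b-5p, mmu-miR-30c-5p, mmu-miR-30d-5p and mmu-miR-30e-5p of the 5p arm, and mmu-miR-30a-3p, mmu-miR-30d-3p and mmu-miR-30e-3p of the 3p arm. The prefix mmu, for mouse, is left out where no name is quoted from the table. They are 8 of 1544 miRNA names, of which 991 are names of mature miRNAs.

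A miRNA is cut out of a hairpin RNA by the nucleases Drosha and Dicer, and 1 strand of the resulting duplex, the 5p or the 3p arm, is loaded into an Argonaute protein. Bases 2 to 8 of the loaded strand, the seed, pair with target messenger RNAs and lead to their repression. Reads that differ from the annotated sequence at either end are called isomiRs: a shifted 5′ end moves the seed, and a shifted 3′ end, or a tail added by a nucleotidyl transferase, does not. The miR-30 family is widely expressed, also in testis, and its 5p members share a seed, so they are predicted to share targets.

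Mature sequences were matched in RefSeq (GRCm38.p6) for 5 of the 8 members, and they are shown because the seed groups the members by arm. The seed is in capitals.
miR-30a-5p: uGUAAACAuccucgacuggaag
miR-30c-5p: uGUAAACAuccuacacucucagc
miR-30e-5p: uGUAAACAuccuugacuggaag
miR-30a-3p: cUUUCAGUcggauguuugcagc
miR-30e-3p: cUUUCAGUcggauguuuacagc
The 5p sequences had 1 seed and the 3p sequences of miR-30a and miR-30e another. Counting from 1 at the 5′ end and taking the miR-30a base first, miR-30e-5p differed from miR-30a-5p by C13U alone, and miR-30e-3p from miR-30a-3p by G18A alone. miR-30c-5p matched miR-30a-5p over its first 12 bases and differed at 5 later positions. RefSeq also lists miR-384-5p with the seed of the 5p members, and the table held no read under that name.

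The family comes from 6 hairpins in 3 pairs in the mouse genome (GRCm39, GENCODE M39). Mir30a (chr1:23311350-23311420, plus strand) lay 19361 bp from Mir30c-2 (chr1:23330782-23330865, plus strand), which overlapped an exon of the long non-coding gene Gm27028. Mir30c-1 (chr4:120626731-120626819) and Mir30e (chr4:120629803-120629894), both on the minus strand, lay 2983 bp apart in introns of Nfyc, which encodes a subunit of the transcription factor NF-Y. Mir30b (chr15:68209264-68209359) lay 3697 bp from Mir30d (chr15:68213057-68213138), both on the minus strand, and Mir30d overlapped an exon of the long non-coding gene Gm20732. miR-30c-5p is the same in both of its hairpins, so its reads could not be divided between chromosomes 1 and 4.

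The libraries held 9619666 and 10900306 counted reads in the knockdown and 11117460 and 9260452 in the wild type, and 1537719 to 2231087 reads of 18 to 25 nt per library were annotated as miRNAs. At this depth 3 reads, the most that a count of 0 allows, came to 1.34 to 1.95 reads per 1000000 miRNA reads (counting error only). Knockdown library 2 stood apart: it lay outside the range of the other 3 libraries for 659 of 936 tested miRNA names (70.4%), and its scaling factor was 0.712 against 1.10 to 1.14 in the others. Any 1 of 4 libraries is often the lowest or highest for a name, and that share is not given here for the others. Of the markers taken for cell types of the testis, the spermatocyte miRNA miR-34c-5p was present at 4764 and 8855 CPM in the knockdown and 3769 and 6166 CPM in the wild type, where CPM are counts per 1000000 miRNA reads after TMM scaling. The summed spermatocyte markers (2 of 3 tested) came to 4888 and 8921 CPM in the knockdown and 3823 and 6279 in the wild type. Nearly all of that sum was miR-34c-5p. The other tested marker, miR-449a-5p, had 124 and 65.7 CPM in the knockdown and 54.5 and 113 in the wild type. The summed markers of somatic cells (6 of 6 tested) came to 37727 and 62820 CPM in the knockdown and 45213 and 44026 in the wild type, most of it miR-143-3p, at 25751 and 52198 CPM in the knockdown and 23912 and 28037 in the wild type. The somatic markers miR-202-5p, miR-145a-5p, miR-126a-3p and miR-214-3p were each lowest in knockdown library 2, at 1399, 5528, 1955 and 200.4 CPM in that order, against lowest values in the other libraries of 2112, 5733, 3274 and 419.7. The remaining somatic marker, miR-199a-3p, had 250 and 1540 CPM in the knockdown and 5943 and 3245 in the wild type. The similar name miR-199b-3p is outside the list. With hairpin-named reads added it had 7324 and 2769 CPM in the knockdown and 0 and 4103 in the wild type. Whether reads passed between these names, and so in or out of the somatic sums, was not tested. Blood markers (4 of 5 tested) summed to 178 and 93.7 CPM in the knockdown and 196 and 195 in the wild type. The largest of them, miR-486a-5p, had 135 and 42.4 in the knockdown and 155 and 151 in the wild type. In knockdown library 2 miR-142a-3p was also lowest, miR-451a was highest (38.3 CPM) and miR-223-3p lay within the range. The similar name miR-486b-5p is outside the list. With hairpin-named reads added it had 48.3 and 159 CPM in the knockdown and 0.409 and 21.7 in the wild type. Whether reads passed between the miR-486 names was not tested. The summed markers of spermatogonia (4 of 4) ranged from 1636 to 2274 CPM. No tested marker was at 0, and knockdown library 2 was above the others for 1 and below them for 4 of the 6 somatic markers; the part of cell makeup in the results below was not tested.

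Most miR-30 reads were not under the members' names. In all 5 members with a RefSeq sequence, 100% of the reads under the mature name lay within the annotated mature sequence, so that any read reaching further, or ending in other bases, had been filed elsewhere. Reads of the arms were therefore also gathered from the whole table by their bases 2 to 19, whatever their name, class or length. This gave 184695 and 149057 reads of the 8 arms in knockdown libraries 1 and 2, and 178569 and 127236 in wild-type libraries 1 and 2. Of these reads, 43.2% and 31.9% carried a mature name in the knockdown and 38.1% and 43.5% in the wild type.

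Most of the reads left out were longer forms of the 5p arm, which the table lists under the name of the hairpin. The 3 most frequent reads of miR-30a-5p are shown because they carry this result, with bases beyond the annotated 3′ end in capitals.
miR-30a-5p, 24 nt: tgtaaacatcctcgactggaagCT
miR-30a-5p, 23 nt: tgtaaacatcctcgactggaagC
miR-30a-5p, 22 nt: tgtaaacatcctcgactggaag
The 24-nt read made up 41.0% and 54.7% of miR-30a-5p in knockdown libraries 1 and 2 and 50.5% and 43.1% in wild-type libraries 1 and 2. The 22-nt read, which is the annotated sequence, made up 17.1% and 18.9% in the knockdown and 14.9% and 17.2% in the wild type. The added bases match the hairpin, so they were read as part of the precursor and not as a tail. A uridine added to the 23-nt read would give the same 24-nt sequence, so the origin of that last base cannot be told from the reads. In all 4 libraries the 24-nt form was the most frequent.

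Hairpin names held 70.1% to 77.3% of the reads of miR-30a-5p over the 4 libraries, 75.6% to 80.7% of miR-30d-5p and 80.2% to 85.8% of miR-30e-5p. They held 18.7% to 21.4% of miR-30c-5p, whose annotated sequence is 1 base longer, and 0.488% to 1.77% of miR-30b-5p. These arms alone made up 50.2% and 45.9% of all hairpin-named reads in the knockdown and 44.4% and 46.6% in the wild type. In miR-30e-5p the 24-nt read was the main form by a wide margin.
miR-30e-5p, 24 nt: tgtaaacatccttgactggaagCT
miR-30c-5p, 24 nt: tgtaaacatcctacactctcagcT
The first made up 72.4% and 71.6% of miR-30e-5p in the knockdown and 77.2% and 74.2% in the wild type. The second made up 18.8% and 18.6% of miR-30c-5p in the knockdown and 21.3% and 19.5% in the wild type. That miR-30c-5p read occurs in both hairpins, and the table gave it to 1 of them in each library: mir-30c-2 had 4520 and 2.74 CPM in the knockdown and 4666 and 0 in the wild type, while mir-30c-1 had 0 and 2758 CPM in the knockdown and 2.85 and 4588 in the wild type. The name thus split the libraries by replicate number in both groups.

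**Figure D1:**
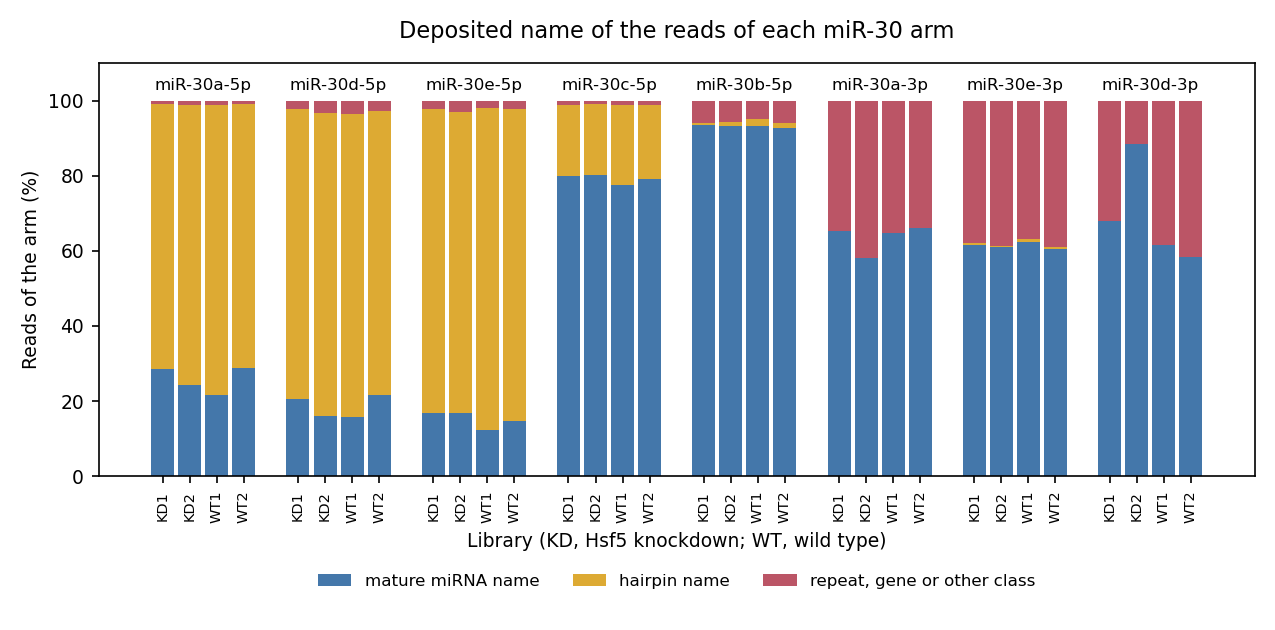
Share of the reads of each arm (y axis, %) by the kind of name they carry in the deposited table, 1 bar per library, with the Hsf5 knockdown (KD) libraries left of the wild-type (WT) libraries in each block. Hairpin names hold 70.1% to 85.8% of the reads of miR-30a-5p, miR-30d-5p and miR-30e-5p, and names of repeats or genes hold 34.0% to 41.8% of miR-30a-3p and 36.9% to 38.9% of miR-30e-3p.

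The order of the members depended on which reads were counted. By the mature names mmu-miR-30c-5p was first, with 19245 and 11940 CPM in the knockdown and 16948 and 18596 in the wild type, ahead of mmu-miR-30d-5p with 7627 and 7956 in the knockdown and 5707 and 7626 in the wild type. With the hairpin-named reads joined to their arm, miR-30d-5p was first, with 35698 and 49075 CPM in the knockdown and 35041 and 33861 in the wild type. In each library the member ranked first by one way of counting exceeded the other member in that same library, and the ranges did not overlap. Each read stands for 1 whole small RNA, so members were compared without a length correction; differences in ligation between sequences were not tested.

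With the joined counts miR-30c-5p followed miR-30d-5p, at 23508 and 14979 CPM in the knockdown and 21738 and 22873 in the wild type. miR-30a-5p had 9167 and 26322 CPM in the knockdown and 8970 and 8932 in the wild type. In knockdown library 2 these neighbours changed places, and in the other 3 libraries miR-30c-5p was the higher one. miR-30e-5p had 1154 and 1229 CPM in the knockdown and 1386 and 1372 in the wild type, overlapping in range with miR-30a-3p. miR-30a-3p had 1286 and 3179 CPM in the knockdown and 1307 and 1301 in the wild type. Below these came miR-30e-3p (999 and 2558 CPM in the knockdown, 998 and 979 in the wild type), miR-30b-5p (705 and 408 in the knockdown, 593 and 637 in the wild type) and miR-30d-3p (13.0 and 37.6 in the knockdown, 22.9 and 16.0 in the wild type), except that in knockdown library 2 both miR-30a-3p and miR-30e-3p exceeded miR-30e-5p. The last member rests on 28 to 56 reads a library. Joined counts still leave out the 3p reads filed under repeat or gene names. Counted under all names, miR-30e-3p had 3982 and 6005 reads in the knockdown and 3899 and 2824 in the wild type. Those of miR-30e-5p numbered 2899 and 1816 in the knockdown and 3447 and 2450 in the wild type. Both miR-30a-3p and miR-30e-3p then exceeded miR-30e-5p in each library.

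**Figure D2:**
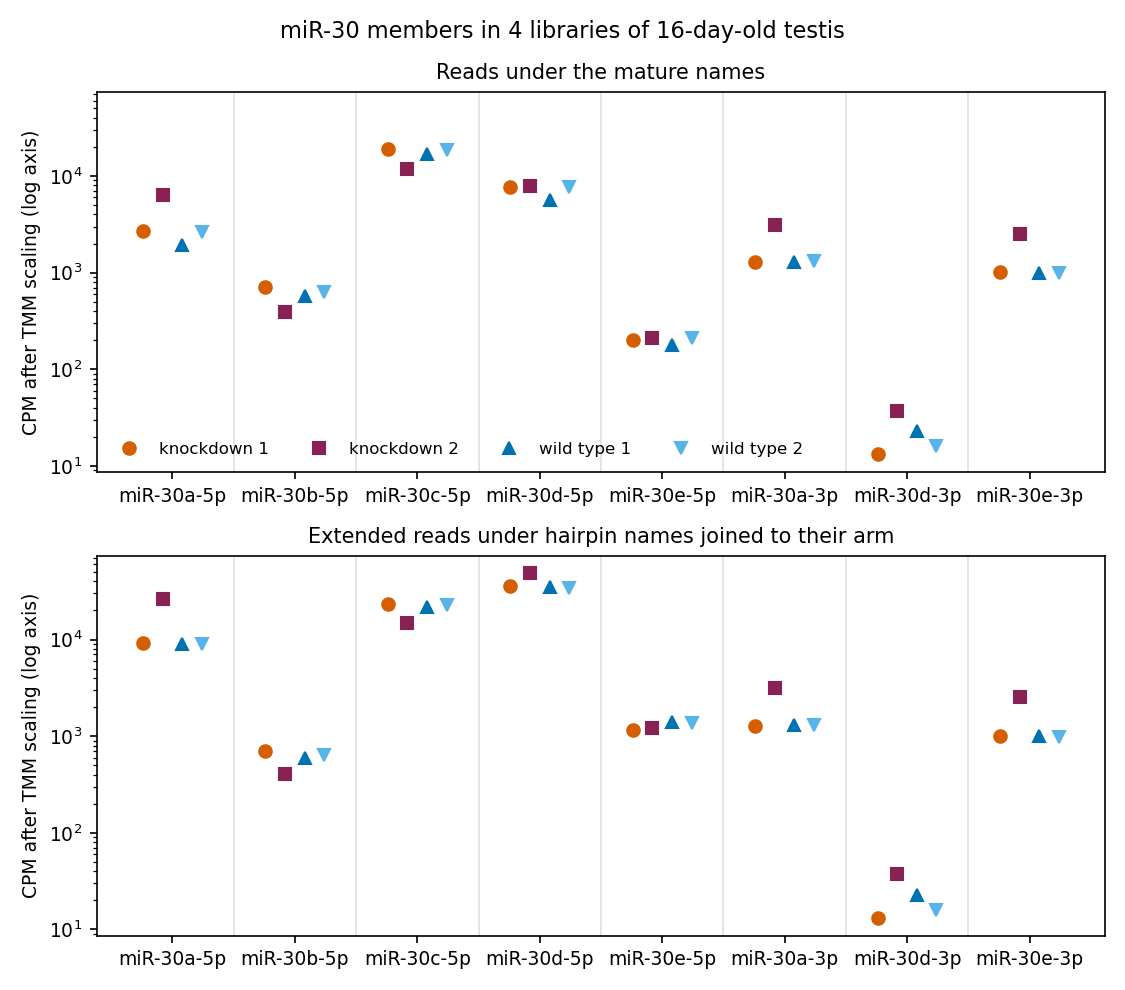
CPM of the 8 members after TMM scaling (y axis, log scale) in knockdown libraries 1 and 2 and wild-type libraries 1 and 2, by mature names (top) and with hairpin-named reads joined to their arm (bottom). In the lower panel the symbols of knockdown library 1 and both wild-type libraries nearly coincide for most members, while knockdown library 2 is set off for all but miR-30e-5p.

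The knockdown and wild-type groups were compared to ask whether any member changed with the Hsf5 knockdown. None of the 8 members passed edgeR's quasi-likelihood F test after Benjamini-Hochberg adjustment over all 936 tested miRNA names, and neither did any other name (0%; 14 names had an unadjusted p under 0.05, and DESeq2 called 0 with 16 such names). By mature names the largest difference was that of mmu-miR-30a-5p, 2672 and 6362 CPM in the knockdown and 1952 and 2648 in the wild type, a log2 difference of 0.97 (SE 0.54, adjusted p = 0.992). mmu-miR-30e-3p differed by 0.83 (SE 0.53) and mmu-miR-30a-3p by 0.76 (SE 0.52) on the log2 scale, and the other 5 by -0.19 to 0.35. The joined counts gave 0.99 (SE 0.59, adjusted p = 0.997) for miR-30a-5p and called 0 of 790 names. In bulk tissue fewer cells of a type and less RNA per cell cannot be told apart.

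The larger differences rested on knockdown library 2. With the joined counts, its miR-30a-5p was 2.92 times the mean of the other 3 libraries, which among themselves spanned a factor of 1.03. Its miR-30e-3p was 2.58 times and its miR-30a-3p 2.45 times that mean, where the other 3 libraries spanned a factor of 1.02 in each case. miR-30c-5p and miR-30b-5p went the other way in that library, at 0.660 and 0.632 of the mean. Knockdown library 2 was outside the range of the other 3 by mature names for 7 of 8 members, which stands beside 70.4% of all names, for 14 of 17 let-7 names and for 6 of 8 miR-181 names. The median log2 difference was 0.29 over the members, 0.20 over let-7, -0.08 over miR-181 and 0.01 over all tested names, with 0 called in each. Groups did not overlap for 3 of 8 members, beside 29.1% of all names.

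Left with knockdown library 2 alone against the wild type, the same test called miR-30a-3p (log2 difference 1.30, adjusted p = 0.0470) and miR-30e-3p (1.39, adjusted p = 0.0456) among 53 of 853 names, with the lone library assumed to vary like the wild type. The hairpin name mmu-mir-30a was also called, which made 3 names of the family. Left with knockdown library 1 alone it called 4 of 901 names and no member. Median absolute differences between knockdown library 1 and the wild-type mean were 0.15 on the log2 scale over the members and 0.35 over all tested names.

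How far knockdown library 2 stood from the others, and on which side, changed with the scaling. Without TMM factors it was outside the range of the other 3 libraries for all 8 members: miR-30d-5p had 8660 and 5663 reads per 1000000 miRNA reads in the knockdown and 6288 and 8566 in the wild type, so that library was lowest, where with TMM factors it was highest. On the same scale miR-30a-5p had 3033 and 4528 in the knockdown and 2150 and 2975 in the wild type, and library 2 was highest as before. Without the factors the median over all names moved to -0.24 on the log2 scale, against 0.01 with them, and miR-30d-5p and miR-30e-5p turned to lower in the knockdown (-0.053 and -0.18). As reads per 1000000 counted reads, under all names, miR-30d-5p had 9331 and 6684 in the knockdown and 7983 and 6585 in the wild type, so knockdown library 2 lay within the range of the others. miR-30a-5p had 2363 and 3503 in the knockdown and 1994 and 1704 in the wild type, and miR-30c-5p 6091 and 1993 in the knockdown and 4836 and 4377 in the wild type. Knockdown library 2 thus remained highest for miR-30a-5p and lowest for miR-30c-5p on this scale too.

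Shares within the family need no scaling. Among the 5p reads under mature and hairpin names, miR-30a-5p took 13.0% and 28.6% in the knockdown and 13.2% and 13.2% in the wild type. miR-30c-5p took 33.5% and 16.3% in the knockdown and 32.1% and 33.8% in the wild type, and miR-30d-5p 50.8% and 53.3% in the knockdown and 51.7% and 50.0% in the wild type. The makeup of knockdown library 1 was within 2 percentage points of both wild-type libraries for these members, and library 2 was above all of them for miR-30a-5p and below all of them for miR-30c-5p. miR-30e-5p was the one 5p member whose groups did not overlap with values lower in both knockdown libraries, at 1.64% and 1.33% against 2.04% and 2.02% in the wild type (exact two-sided permutation p = 0.33, the smallest that 2 against 2 libraries allow). By mature names alone its groups overlapped, at 0.666% and 0.782% in the knockdown and 0.696% and 0.707% in the wild type, and the knockdown mean was the higher one.

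Products of 1 hairpin or 1 locus did not share 1 ratio in knockdown library 2. For the Mir30a and Mir30c-2 pair, the ratio to the mean of the other 3 libraries was 2.92 for miR-30a-5p, 2.45 for miR-30a-3p and 1.71 for miR-30c-2-3p, the partner arm that belongs to Mir30c-2 alone. For the Mir30c-1 and Mir30e pair it was 1.04 for miR-30c-1-3p, 0.943 for miR-30e-5p and 2.58 for miR-30e-3p. For the Mir30b and Mir30d pair it was 0.632 for miR-30b-5p, 1.06 for miR-30b-3p, 1.41 for miR-30d-5p and 2.18 for miR-30d-3p. The arms of Mir30e thus stood apart from each other in that library, while both arms of Mir30a were high.

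The family as a whole made up 4.10% and 2.57% of mature miRNA reads in the knockdown and 3.40% and 3.97% in the wild type (exact two-sided permutation p = 1). Under mature and hairpin names it made up 8.32% and 6.83% of miRNA reads in the knockdown and 7.67% and 7.96% in the wild type. The groups overlapped on both counts. Summed over the 5p members, CPM by mature names were 30455 and 26865 in the knockdown and 25362 and 29716 in the wild type.

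The choice of arm was next compared within each hairpin. Mir30d gave nearly pure 5p product: 99.8% and 99.5% of its mature-named reads were 5p in the knockdown and 99.6% and 99.8% in the wild type. For Mir30a the mature names gave a 5p share of 67.3% and 67.1% in the knockdown and 60.0% and 66.8% in the wild type, while all names gave 82.5% and 83.1% in the knockdown and 81.8% and 82.1% in the wild type. Both readings have the knockdown values above the wild-type values (exact two-sided permutation p = 0.33 each, the smallest possible), by 3.79 percentage points in one and 0.80 in the other. Without wild-type library 1 the difference by mature names was 0.417 points, and without wild-type library 2 it was 7.17.

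Mir30e looked like a 3p hairpin by its mature names. These gave a 5p share of 16.7% and 7.72% in the knockdown and 15.1% and 17.5% in the wild type. Under all names its 5p share was 42.1% and 23.2% in the knockdown and 46.9% and 46.5% in the wild type, so the arms were close to even in the wild type and in knockdown library 1. The groups did not overlap in this reading (difference of -14.0 percentage points, exact two-sided permutation p = 0.33), and without knockdown library 2 the difference was -4.56 points. By mature names the difference was -4.07 points, and it was 0.44 without knockdown library 2.

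**Figure D3:**
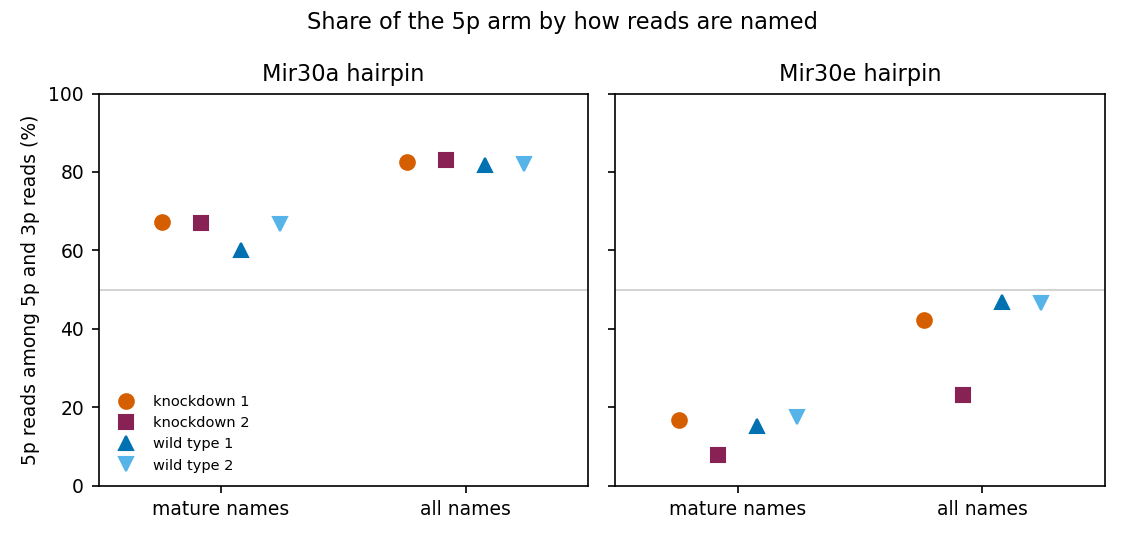
Share of 5p reads among the 5p and 3p reads (y axis, %) of the Mir30a hairpin (left) and the Mir30e hairpin (right), by mature names and by all names, with knockdown libraries plotted left of wild-type libraries and a grey line at 50%. Counting all names raises every value, for Mir30e from at most 17.5% to as much as 46.9%, and knockdown library 2 stays lowest for Mir30e in both readings.

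Read lengths differed between members far more than between groups. Under all names miR-30c-5p was mainly 23 nt long, miR-30b-5p 22 nt, miR-30e-5p 24 nt, and miR-30a-5p and miR-30d-5p were spread over 22 to 24 nt. The mean length over the 5p members was 23.1 and 23.4 nt in the knockdown and 23.3 and 23.1 nt in the wild type under all names, and 22.4 and 22.2 nt in the knockdown and 22.5 and 22.4 nt in the wild type by mature names (exact two-sided permutation p = 1 and p = 0.667).

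In knockdown library 2 the 24-nt form outweighed the 23-nt form by more than in the other libraries in miR-30a-5p and miR-30d-5p. The ratio of 24-nt to 23-nt reads of miR-30d-5p was 1.73 and 3.42 in the knockdown and 1.75 and 1.69 in the wild type (exact two-sided permutation p = 0.667). For miR-30a-5p it was 1.40 and 2.78 in the knockdown and 1.91 and 1.62 in the wild type. The same ratio was 0.240 and 0.234 in the knockdown and 0.279 and 0.252 in the wild type for miR-30c-5p, and 8.78 and 9.44 in the knockdown and 9.19 and 8.21 in the wild type for miR-30e-5p. Library 2 was therefore clearly highest for the first 2 members. It was lowest for miR-30c-5p and highest for miR-30e-5p, each time close to another library. The 23-nt reads of miR-30e-5p include a read that began at base 2 and ended where the 24-nt form ends. That read was counted 68 and 37 times in the knockdown and 94 and 65 times in the wild type.

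**Figure D4:**
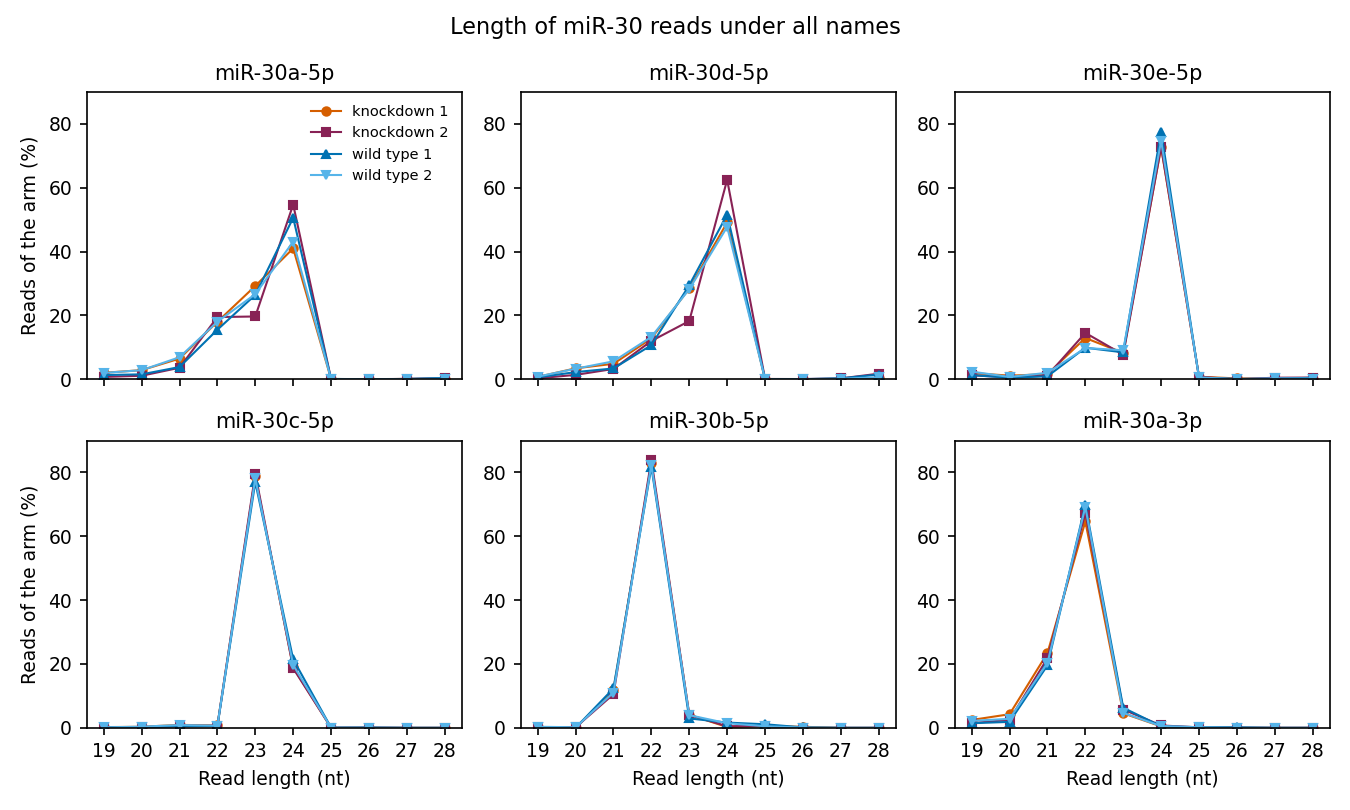
Length (x axis, nt) of the reads of 6 arms under all names as a percentage of the arm's reads (y axis), 1 line per library. miR-30b-5p, miR-30c-5p and miR-30e-5p each have 1 main length shared by all libraries, and knockdown library 2 has 62.5% of its miR-30d-5p at 24 nt, against 47.7% to 51.6% in the others.

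The 5′ end, which sets the seed, was nearly fixed over all 5p reads. Of 5p reads by mature names, over members with a RefSeq sequence, 99.9% and 99.9% began at the annotated base in the knockdown and 99.9% and 99.9% in the wild type. Under all names these shares were 99.3% and 98.7% in the knockdown and 99.3% and 99.3% in the wild type (exact two-sided permutation p = 0.33). The pooled share is mostly that of the abundant members. In miR-30e-5p, under all names, reads that began at base 2 made up 3.45% and 3.41% in the knockdown and 3.31% and 3.59% in the wild type, and in miR-30a-5p 1.72% and 1.79% in the knockdown and 1.56% and 1.54% in the wild type.

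The 3p arms of miR-30a and miR-30e, which differ by a single base, differed at this end. Reads that began 1 base later, at base 2, made up 20.4% and 17.9% of miR-30a-3p in the knockdown and 17.9% and 17.7% in the wild type. They made up 1.63% and 1.58% of miR-30e-3p in the knockdown and 1.62% and 1.38% in the wild type. The shift moves bases 2 to 8 by 1 position along the arm. It was more frequent in miR-30a-3p in each of the 4 libraries, and knockdown library 1 had the highest share for both arms.

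The 3p arms also carried tails. In the reads shown here the capital marks bases that match neither the mature sequence nor the hairpin.
miR-30a-3p, annotated: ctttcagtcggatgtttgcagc
miR-30a-3p, tailed: ctttcagtcggatgtttgcagT
miR-30e-3p, annotated: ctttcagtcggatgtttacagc
miR-30e-3p, tailed: ctttcagtcggatgtttacagT
miR-30e-3p, tailed with 2: ctttcagtcggatgtttacagTT
In each tailed form the last base of the annotated sequence is missing and uridine (printed T, as read) stands in its place. The single-uridine form made up 18.5% and 23.5% of miR-30a-3p in the knockdown and 18.2% and 19.7% in the wild type, and 29.9% and 27.4% of miR-30e-3p in the knockdown and 26.8% and 30.7% in the wild type. The table lists these reads as LINE, LTR or SINE repeats, and no member's name holds them.

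Of the reads that began at the annotated base, 27.1% and 33.7% of miR-30a-3p had a tail of uridines only in the knockdown, against 27.3% and 27.5% in the wild type (exact two-sided permutation p = 1). For miR-30e-3p it was 36.5% and 36.6% in the knockdown and 35.6% and 37.9% in the wild type. The groups overlapped for both arms. Of such miR-30a-3p reads outside miRNA names, 93.9% and 94.4% were counted as tailed in the knockdown. In the wild type it was 91.4% and 92.8%, and for miR-30e-3p 100% in each library. The remaining miR-30a-3p reads match the hairpin to their last base, so a base added there was not seen as a tail. Uridine-only tails made up 94.6% to 96.7% of all tailed reads of these arms. In miR-30a-5p, miR-30c-5p and miR-30e-5p they were found on 0.094% to 0.648% of reads. In these 5p arms the hairpin has a uridine after the 23-nt form, so a single uridine added there was not counted as a tail. How far this lowers the 5p values was not tested. Summed over these 5p members, the ones with a RefSeq hairpin, tails of any kind came to 1.06% and 1.03% in the knockdown under all names. In the wild type they came to 1.03% and 1.06%. By mature names the share was 0, because no tailed read carries such a name.

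**Figure D5:**
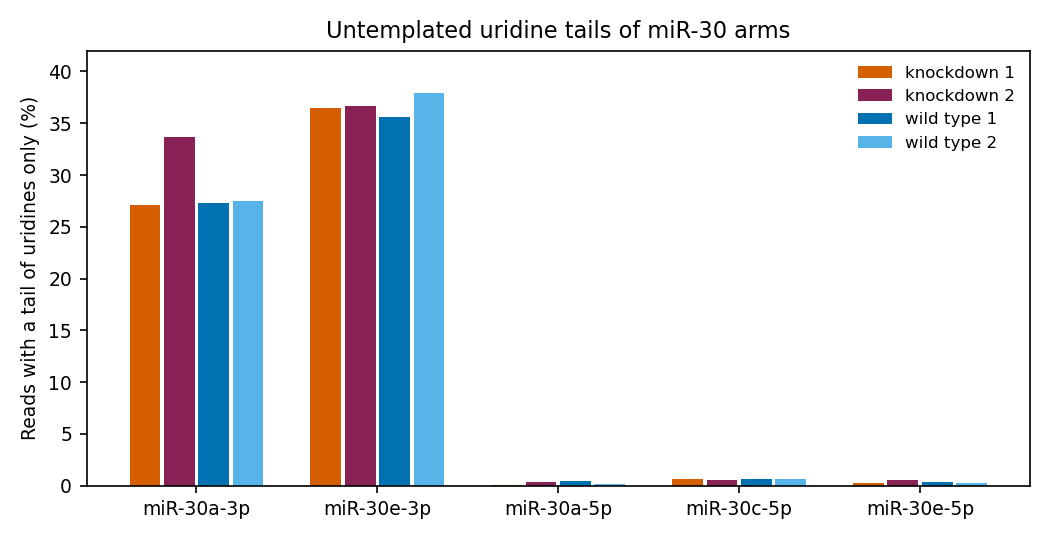
Reads with an untemplated tail of uridines only, as a percentage (y axis) of the reads that begin at the annotated base, for 5 arms in the knockdown libraries and then the wild-type libraries. Bars reach 27.1% to 37.9% in the 3p arms and reach at most 0.648% in the 5p arms. A uridine added where the hairpin has one is not counted as a tail.

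Reads of over 25 nt were a small further class. They numbered 479 and 1591 for miR-30d-5p in the knockdown, or 0.534% and 2.18% of the arm, and 1724 and 561 in the wild type, or 1.94% and 0.920%. The most frequent such read of miR-30a-5p had 28 nt, of which 24 matched the hairpin, and ended in 4 untemplated uridines. Bases past the mature sequence are in capitals.
miR-30a-5p, 28 nt: tgtaaacatcctcgactggaagCTTTTT
It was read 19 and 114 times in the knockdown and 85 and 25 times in the wild type. For both members knockdown library 2 and wild-type library 1 were the high ones, so the groups overlapped.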

How the data were processed

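Each line of the deposited table held a sequence, its library, an annotation and the authors' count of reads, not normalized. Per the labels' protocol, adaptors were ligated to both ends of small RNA and inserts of 18 to 40 bases were selected; the submitters' processing notes name cutadapt, an adaptor trimmer, and the build mm39. Not given in the sources used here are the aligner, its mismatches and how a class was chosen. A second column is a ratio, the authors' scaling factor, equal to 1000000 divided by the mature miRNA reads, and was not used. The table names the knockdown libraries as knockouts; the labels' wording was followed.

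Each sequence was counted once per library, which left out 6491165 of 12700077 lines that repeat a count under another annotation. Reads of 18 to 25 nt were summed by miRNA name, mature and hairpin names apart. Names with 1 CPM in at least 2 libraries were tested with edgeR 4.0.16 (R 4.3.3, quasi-likelihood F test, robust, TMM factors, Benjamini-Hochberg at 0.05), knockdown over wild type. DESeq2 1.42.0 was an alternative. For shares, all 6 assignments of 2 against 2 libraries were enumerated (exact permutation, two-sided), and the smallest p is 0.33. The tests were tried on simulated counts. For edgeR the simulated spread between replicates was smaller than in these libraries, so that trial does not measure power here. For the joined counts, hairpin-named reads that hold bases 2 to 19 of a mature miRNA were added to that arm. For all names, every read of the table holding bases 2 to 19 of a miR-30 arm's most frequent read was taken, from base 2 or up to 2 bases upstream of the arm's first base. A tail is the part of a read's 3′ end that departs from the RefSeq hairpin, so tails were read only for members with one. An added base that matches the hairpin is not seen as a tail. Joining and all names were chosen after seeing the data.

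Replicate libraries differed beyond sampling noise (chi-square per degree of freedom over miRNA names of 585.5 in the knockdown and 160.7 in the wild type). These names include some that split by replicate number, such as mir-30c-1 and mir-30c-2, so part of the difference is one of naming. How large that part is was not tested. The labels do not say whether replicates came from separate animals, nor whether equal numbers share a litter or day; p-values measure the spread between these libraries. The rule named all 8 members, other names of the family or seed, the 3 nearest patterns among abundant miRNAs, let-7 and miR-181 for comparison, and each member's 3 most frequent reads; the 28-nt read shown beyond that rule was picked with its values in view. The members and lists were chosen with earlier results of these data known.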

Additional observations from a re-analysis of the deposited data

How the results depend on the processing

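The count of called miRNA names was 0 with DESeq2, with other library sizes, with other length windows, with 1 name per sequence and with the joined counts. It was 2 with no filter on low counts and 0 to 53 when each library was left out in turn. No member was called in any of these except miR-30a-3p (1.30) and miR-30e-3p (1.39) without knockdown library 1. Fits with the replicate number as a block called 0 names (9 at an unadjusted p under 0.05) and changed no other call. The numbers do not pair the libraries by the labels. Over the 936 tested miRNA names, deviations of same-numbered libraries from their group means correlated at 0.222. Names that split by replicate number, such as mir-30c-1 and mir-30c-2, are among them. Log2 differences reversed without knockdown library 2 for miR-30b-5p, miR-30c-5p and miR-30d-3p, and over the 4 libraries left out in turn they ranged from -0.57 to 0.28, from -0.53 to 0.17 and from -0.52 to 0.96 in that order. Without TMM factors they reversed for miR-30d-5p (-0.053), miR-30e-5p (-0.18) and miR-30d-3p (-0.074), as did miR-30e-5p with the joined counts (-0.21).

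The family's share of mature miRNA reads differed by -0.355 percentage points; it reversed with each distinct sequence counted once (0.137), as a share of all counted reads (0.0385), and ranged from -1.12 to 0.410 with a library left out. The 5p share of Mir30d differed by -0.012 points, 0.0226 under all names, and ranged from -0.157 to 0.133 with a library left out. With each distinct sequence counted once it differed by -19.7 points, at 54.5% and 63.6% in the knockdown and 70.0% and 87.5% in the wild type. With a library left out, the 5p share of Mir30e ranged from -8.57 to 0.440 and that of Mir30a from 0.417 to 7.17 by mature names. Mean 5p length differed by -0.117 nt, and by 0.0452 under all names. The share at the annotated 5′ end differed by -0.0441 points, and by 1.62 with each sequence counted once. The tail share of 5p members with a RefSeq hairpin moved to a difference of 0.00266 points under all names. The causes were not tested, except that all names add the reads left out by construction. Depth limits miR-30d-3p most.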

Other observations

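Over the 4 libraries, the miRNAs whose scaled log2 levels lay nearest to the sum of the 5p members were miR-322-3p, let-7d-5p and miR-361-5p, out of 256 candidates with at least 100 CPM. miR-322-3p had 1820 and 1708 CPM in the knockdown and 1640 and 1860 in the wild type. With 4 libraries this is a description of likeness only.

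Arms of the family outside the 8 members were also present. miR-30c-2-3p had 581 and 941 CPM in the knockdown and 556 and 556 in the wild type, miR-30b-3p had 170 and 229 in the knockdown and 248 and 247 in the wild type, and miR-30c-1-3p had 71.1 and 63.6 in the knockdown and 58.2 and 59.1 in the wild type. Their hairpin-named share was 0% in each library. miR-30b-3p was lower in both knockdown libraries and miR-30c-2-3p higher, without passing the edgeR test (adjusted p = 0.992 each). The hairpin name mmu-mir-30f, also of the family, had 8.62 and 15.7 CPM in the knockdown and 11.0 and 11.6 in the wild type. Its locus is not described here.

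Reads of the arms in classes other than miRNA were 8059 LINE, 7895 LTR, 6051 SINE and 4964 gene reads over all libraries. Some sequences carried different names in different libraries: this held for 47 of 326 arm sequences found in at least 2 libraries, with 7.38% of their reads. The single-uridine read of miR-30a-3p, for one, was listed as SINE RSINE1 in some libraries and as LINE L1M3 in others.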
